A study of Mus musculus with 15 samples.

Results

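Hmgcs1, Idi1, Fdps, Fdft1, Sqle and Cyp51, 6 enzymes of cholesterol synthesis, and Insig1, which holds back the pathway's transcription factors, were followed in RNA from whole mouse brain. They are 7 of 43629 genes counted in each library, and all were among the 15864 genes with enough counts to be tested. They were chosen by name for their place in the pathway. Both they and the lists used below were chosen with earlier results of these data known. The set is labelled as synthesis and uptake genes, but it holds no gene of uptake, so uptake is described below from a separate list. The 15 mice were male C57BL/6J wildtype animals in 4 groups. Young AL mice (n = 4; labelled 3M_AL, age given as 3 months) and old AL mice (n = 4; labelled 24M_AL, age given as 24 months) ate ad libitum. Young EOD mice (n = 3; labelled 3M_IF, 3 months) and old EOD mice (n = 4; labelled 24M_IF, 24 months) were on every-other-day feeding, an intermittent fasting schedule in which days with and without food alternate. By the study's methods the schedule began in early adulthood, so young mice had followed it for a short time and old mice for most of their lives, and differences between old and young EOD mice combine age and time on the diet. The ages are those of the labels. The methods give the ages at which a long series of tests on the mice began, lower than the label for old mice. They place pathology at the end of that series, weeks later, and do not say when brains for RNA were taken. Had brains been taken at the end, young mice would have been older than their label, and longer on the diet. The age at which brains were taken is therefore uncertain for both age groups. As a general rule the methods place measurements on the morning after a day with food, and they say nothing particular to the brain samples.

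Cholesterol is built from acetyl-CoA through mevalonate and squalene. Brain cholesterol is made almost wholly within the brain, because lipoproteins do not cross the blood-brain barrier, and most of it lies in the myelin that oligodendrocytes lay down. When sterols run low, SCAP carries SREBP2 (encoded by Srebf2) from the endoplasmic reticulum to the Golgi, where it is cut free to switch on the synthesis enzymes. When sterols are plentiful, the INSIG proteins keep SCAP and SREBP2 in place.

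Libraries held 5198748 to 13610729 counts (median 9886766), and markers of neurons, oligodendrocytes, astrocytes and microglia, among them Snap25, Mbp, Gfap and Cx3cr1, were present in every mouse. Young AL replicate 3 stood apart, with the largest total, the fewest genes with a count (17280) and the lowest median correlation with the other mice (0.986). Values over the other 14 mice therefore stand beside the main results that this library enters. Markers of the pituitary, a gland at the base of the brain, summed to 1040 CPM (scaled counts, below) in old AL replicate 4 and to at most 18.2 CPM in any other mouse. The libraries were run in 3 lanes, by the headers of the files, and lane 3 held no young EOD mouse.

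Of the 7 genes, 4 had promoter sequence from RefSeq (Hmgcs1, Cyp51, Idi1 and Insig1). Hmgcs1 and Cyp51 are shown because their levels varied together among mice (below). RefSeq starts the genes at chr13:119690351 (Hmgcs1) and chr5:4104697 (Cyp51), which are not the ends of the genes in the count files given below, and positions of matches are counted from the RefSeq starts. Both stretches lie upstream and are printed in the sense of the gene, on GRCm38.p6: chr13:119690151-119690350, plus strand, for Hmgcs1, and chr5:4104747-4104897, minus strand, for Cyp51. Capitals mark matches to TCACNCCAC and TCACNNCA, close and loose spellings of the SREBP site, and to CCAAT, the NF-Y box, on either strand (ATTGG on the printed strand).
Hmgcs1: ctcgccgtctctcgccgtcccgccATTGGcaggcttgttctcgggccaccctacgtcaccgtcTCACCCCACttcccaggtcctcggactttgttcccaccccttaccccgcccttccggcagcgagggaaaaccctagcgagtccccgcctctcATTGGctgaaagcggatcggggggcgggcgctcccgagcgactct
Cyp51: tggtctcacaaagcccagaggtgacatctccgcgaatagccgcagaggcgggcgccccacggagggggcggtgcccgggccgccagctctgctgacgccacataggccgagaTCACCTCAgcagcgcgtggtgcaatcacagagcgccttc
In the 250 bases before its RefSeq start Hmgcs1 had TCACNCCAC at 137 bases before the start, where TCACNNCA overlaps it, and CCAAT at 45, 176 and 237 bases. Cyp51 had TCACNNCA at 88 bases and CCAAT at 29 bases, the latter outside the stretch shown. Idi1 held only CCAAT, at 14 and 45 bases, and Insig1 only CCAAT, at 216 bases. Over 32851 promoter windows of the same length, 1.05% held TCACNCCAC, 11.4% TCACNNCA and 33.8% CCAAT, so the last 2 are common letters. These are matches of letters, and binding was not measured.

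Hmgcs1 (GRCm38 chr13:119690462-119708086, plus strand), which joins acetyl-CoA units into HMG-CoA, was by far the highest of the 7 per length of gene. It reached 111 ± 11.5 FPKM (counts scaled to library size and to gene length; SD, n = 15), with all mice between 96.1 and 132. Fdft1 followed at 25.8 ± 2.48 FPKM, Cyp51 at 21.9 ± 2.23, Insig1 at 20.2 ± 3.08, Fdps at 17.6 ± 2.59 and Sqle at 14 ± 1.13. The range of each of these 5 overlapped that of its neighbour in the order, so neighbours were not apart beyond the spread among mice. On the deposited lengths, Fdft1 (20.7 to 29.2) and Cyp51 (17.8 to 25.8) lay wholly above Sqle (11.9 to 16.1). These lengths were 2860 bases for Fdft1, 4286 for Cyp51 and 5546 for Sqle. Their longest coding transcripts in the annotation used below have 3698, 3931 and 2758 bases, so this order depends on the lengths used. The level of Fdft1 also includes any reads of Ctsb over shared exon bases (below). Idi1 was lowest, at 0.431 ± 0.173 FPKM, and its highest mouse (0.825) was below the lowest mouse of every other member. In counts, Hmgcs1 had 1642 to 4807 per mouse and Idi1 6 to 25, so Idi1 carries the widest counting error.

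Idi1 and Fdps share much of their sequence with other loci. Idi1 (chr13:8885501-8892451, plus strand) rearranges isopentenyl diphosphate, and Fdps (chr3:89093592-89101967, minus strand) makes farnesyl diphosphate, the precursor of squalene. The reads were 50 bases long, and a read that matches several loci equally is dropped by the mapping quality filter used in counting. In the longest coding transcript, 21.3% of all 50-base stretches of Idi1 (79% of those in the coding part) and 51.1% of those of Fdps (67.1% in the coding part) were also present whole in another annotated locus. For Fdft1 the shares were 10.9% and 33%, for Insig1 2.49% and 9.07%, for Cyp51 0.155% of all stretches and 0.0% of coding ones, and for Hmgcs1 and Sqle 0.0% of either kind. The copies of Idi1, Fdps, Fdft1 and Insig1 were processed pseudogenes, chiefly Gm13502 for Idi1, Gm3571 and Gm5873 for Fdps, Gm6781 for Fdft1 and Gm37784 for Insig1. These 5 received almost no counts themselves, 1 for Gm13502, 7 for Gm3571, 9 for Gm5873, 9 for Gm6781 and 1 for Gm37784, summed over all 15 mice.

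**Figure D1:**
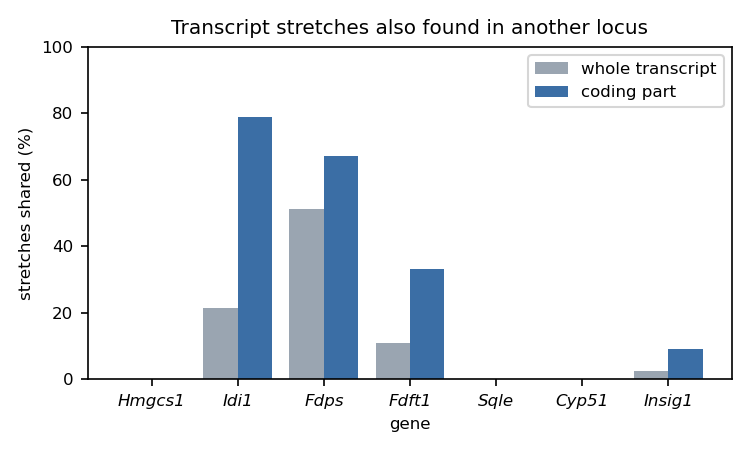
Percentage of 50-base stretches of each gene's longest coding transcript that also occur whole in a transcript of another locus (vertical axis), for the whole transcript (grey) and its coding part (blue). Idi1 (79% of the coding part) and Fdps (67.1%) stand above the other 5 genes, and Hmgcs1 and Sqle are at 0.0%.

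The first 50 bases of each stretch below are the same in gene and pseudogene, so that a read from them cannot be placed. Capitals mark the single base that differs. The Idi1 stretch lies in coding exon 2 of 5 (chr13:8886826-8886895, plus strand) and its copy in Gm35570 (chr5:87370351-87370420, minus strand). The Fdps stretch lies in coding exon 11 of 11 (chr3:89093715-89093784, minus strand) and its copy in Gm3571 (chr10:93779578-93779647, plus strand).
Idi1: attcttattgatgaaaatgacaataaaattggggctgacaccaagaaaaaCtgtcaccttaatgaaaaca
Gm35570: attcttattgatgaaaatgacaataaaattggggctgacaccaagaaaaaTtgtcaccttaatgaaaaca
Fdps: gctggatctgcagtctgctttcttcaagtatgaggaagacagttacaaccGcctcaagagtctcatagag
Gm3571: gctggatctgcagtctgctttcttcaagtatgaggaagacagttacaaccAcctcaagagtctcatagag
Counted from 1 at the left end and read from gene to pseudogene, the differences are C51T and G51A. The levels per length, those of Idi1 and Fdps included, make no allowance for the stretches that cannot be placed. That of Fdft1 also makes none for reads of Ctsb (below). Comparisons of 1 gene between groups are made on the same part of the transcript in every mouse.

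The question of the feeding schedule in young mice was answered by young EOD against young AL mice. In CPM (counts scaled to the library total, adjusted by TMM), Hmgcs1 was at 338, 368, 363 and 327 in the 4 young AL mice, replicate 3 being 363, and at 423, 426 and 389 in the 3 young EOD mice. Every EOD mouse was above every AL mouse. The difference was 0.24 ± 0.08 on the log2 scale (SE; 95% interval 0.07 to 0.41), or 1.18-fold. It was 0.26 (0.08 to 0.44) over 14 mice. Hmgcs1 did not pass the test across all genes, an edgeR quasi-likelihood test with Benjamini-Hochberg adjustment at a false discovery rate (FDR) of 0.1 (unadjusted p = 0.00716, FDR = 0.996).

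Sqle (chr15:59315077-59331192, plus strand), squalene epoxidase and a rate-limiting step of the pathway, was at 65.9, 76.6, 67.2 and 72.8 CPM in young AL mice and at 80.0, 80.0 and 81.9 CPM in young EOD mice. These groups did not overlap either, and the EOD mice lay very close together. The log2 difference was 0.19 ± 0.08 (0.01 to 0.37; edgeR unadjusted p = 0.0354, FDR = 0.996) and 0.17 (-0.02 to 0.35) over 14 mice. Fdps was at 20.2, 21.5, 15.3 and 20.5 CPM in young AL mice and at 25.5, 22.5 and 21.9 CPM in young EOD mice. The groups did not overlap, but the size of the difference leaned on young AL replicate 3, the mouse at 15.3 CPM. The log2 difference was 0.27 (-0.03 to 0.58) with it and 0.17 (-0.11 to 0.46) without it.

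Fdft1 (chr14:63145153-63177793, minus strand), squalene synthase, and Cyp51 (chr5:4081145-4104746, minus strand), lanosterol demethylase, overlapped between the groups. Fdft1 was at 59.3, 75, 65.2 and 62.2 CPM in young AL mice and at 71.0, 70.0 and 78.1 CPM in young EOD mice, a log2 difference of 0.16 (-0.02 to 0.34; -0.04 to 0.35 over 14 mice). Cyp51 was at 85.0, 98.1, 86.0 and 87.7 CPM in young AL mice and at 95.4, 104 and 106 CPM in young EOD mice, a log2 difference of 0.19 (-0.02 to 0.40) and of 0.17 (-0.06 to 0.40) over 14 mice. In both genes 1 young AL mouse, replicate 2, reached into the EOD range.

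Insig1 (chr5:28071363-28078662, plus strand) was at 51.6, 48.4, 53.3 and 49.4 CPM in young AL mice and at 52.2, 49.2 and 76.4 CPM in young EOD mice. A single mouse, young EOD replicate 3, made the difference: the log2 value was 0.23 (-0.07 to 0.52) with it and 0.0026 without it. Idi1 was at 2.89, 1.74, 1.51 and 2.09 CPM in young AL mice and at 1.23, 2.06 and 1.58 CPM in young EOD mice, with overlap. Its log2 difference of -0.35 (-1.17 to 0.47; -0.48, -1.25 to 0.29 over 14 mice) is too wide to give a direction.

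Of the 7 members, 0 passed the test for diet in young mice, where 0.0% of all genes did, and 6 had a positive difference (median 0.19, against 49.2% of all genes positive and a median of all genes at 0.0). At an unadjusted p below 0.05, edgeR gave 2 of 7 members (Hmgcs1 and Sqle) and 657 of 15864 genes (4.14%), and over 14 mice 1 of 7 members. EOD mice lay wholly above AL mice in 3 of 7 members, with and without young AL replicate 3. Over all genes this held for 2.4% with 15 mice and 4.61% with 14, and groups failed to overlap in either direction for 4.45%. DESeq2 called 0 of 7 members and 1 gene in all.

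**Figure D2:**
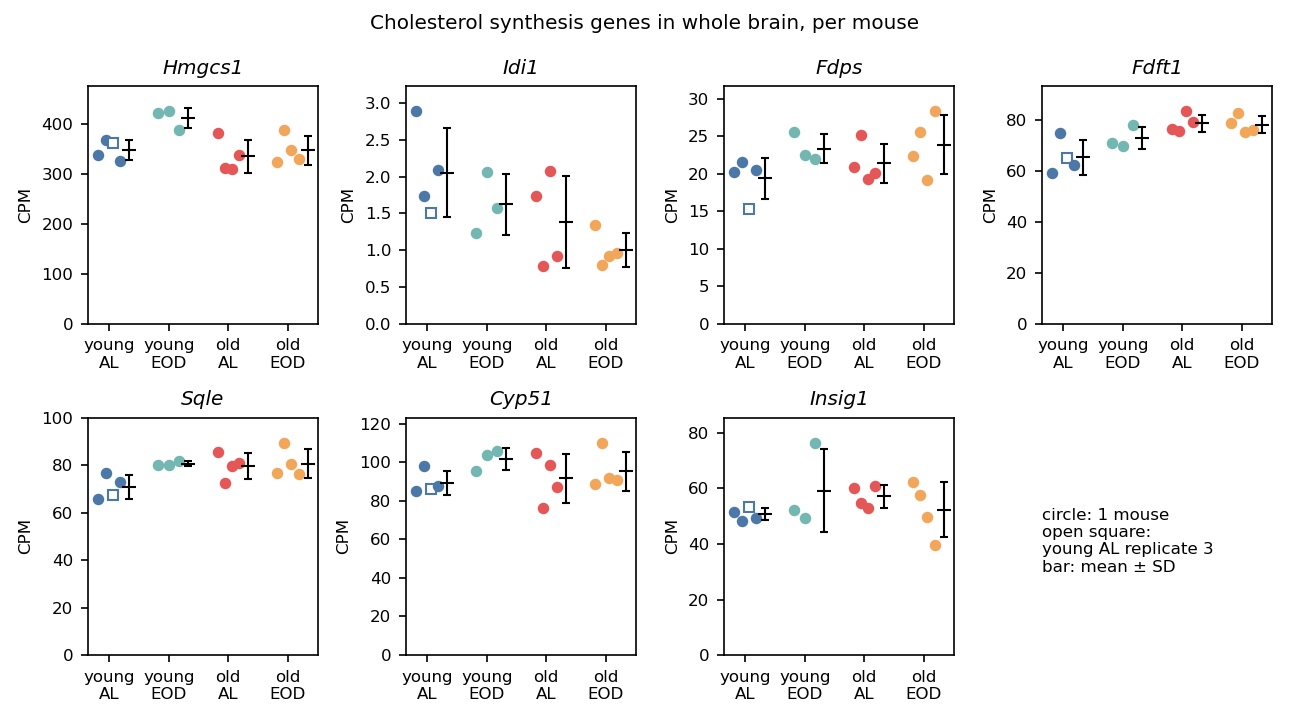
CPM (TMM scaled, linear axes from 0) of each gene in each mouse by group; circles are mice, the open square is young AL replicate 3, and the bar is the mean ± SD. Young EOD mice lie wholly above young AL mice for Hmgcs1, Fdps and Sqle, and old AL mice wholly above young AL mice for Fdft1.

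The other 16 enzymes of the pathway, taken from a list of the textbook route and its Ggps1 side branch, were read beside the 6 enzymes among the members. For diet in young mice, 0 of the 22 passed the test, 18 had a positive difference and the median was 0.19. EOD mice lay wholly above AL mice in 7 of the 22: Hmgcs1, Fdps, Sqle, Acat2, Pmvk, Mvd and Sc5d. Over 14 mice there were 10, Lss and Nsdhl being among those added. Over all genes the shares were 2.4% and 4.61%. An unadjusted p below 0.05 was reached by 6 of 22, all in the positive direction, and by 5 over 14 mice, against 4.14% and 4.01% of all genes. These counts include the members described above. For the other 16 alone, 13 differences were positive (median 0.18). EOD mice lay wholly above AL mice in 4 of the 16 (7 over 14 mice), and 4 reached that edgeR p. Sc5d, which sets a late ring double bond, was at 68.6 ± 4.91 CPM in young AL mice (SD, n = 4) and 83.5 ± 4.74 in young EOD mice (n = 3). Its log2 difference of 0.29 ± 0.08 (0.11 to 0.46; 0.26, 0.08 to 0.44 over 14 mice) had an FDR of 0.996 in edgeR. Acat2, which condenses acetyl-CoA at the head of the pathway, was at 24.1 ± 2.26 and 29.9 ± 1.33 CPM, a log2 difference of 0.31 ± 0.11 (0.08 to 0.53; edgeR FDR = 0.996; 0.27, 0.04 to 0.51 over 14 mice). Ebp, Mvk, Ggps1 and Idi1 had negative differences. Over 14 mice 19 of the 22 were positive and 3 negative. The mean of Ggps1 in young AL mice was 47.6 CPM, and 46.1 CPM without replicate 3, against 47.1 CPM in young EOD mice.

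Markers of oligodendrocytes were read in the same comparison. All 8 mature oligodendrocyte markers had positive differences (median 0.13; 7 of 8 and 0.11 over 14 mice), and 0 of 8 passed the test. Their summed level was 5930 to 7040 CPM in young AL mice, with replicate 3 the lowest, and 6600 to 7150 CPM in young EOD mice. For 6 markers of newly formed oligodendrocytes the sums did not overlap, at 115 to 135 CPM in young AL mice and 139 to 171 CPM in young EOD mice. Of these 6, 4 had positive and 2 negative differences (6 and 0 over 14 mice), and 0 passed. The 5 precursor markers had 3 positive and 2 negative differences, and their sums overlapped (364 to 462 and 389 to 442 CPM). Of 7 astrocyte markers 6 were positive and 1 negative (median 0.06), 0 passed, and the sums overlapped (5020 to 5580 and 5260 to 5740 CPM). All 8 neuron markers were at or below 0 in log2 difference (median -0.06, 0 passed), but over 14 mice 3 were positive and 5 negative (median -0.02), young AL replicate 3 having the highest neuron sum. Of 6 microglia markers 1 was positive and 5 negative (2 and 4 over 14 mice). Endothelial markers had 0 positive and 5 negative differences (1 and 4), choroid plexus markers 1 and 4 (0 and 5), and 0 passed. No oligodendrocyte marker was at 0 in any group. The part of these cells in the values of the synthesis enzymes was not tested, and in whole brain more cells of a type cannot be told apart from more RNA per cell. Within lanes, Hmgcs1 differed by 0.26 in lane 1 (2 AL, 1 EOD) and 0.16 in lane 2, and Sqle by 0.17 and 0.27. The only young AL mouse in lane 2 was replicate 3.

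The same question in old mice was answered by old EOD against old AL mice. Of the 7 members 0 passed the test (0.0% of all genes), 0 had an unadjusted p below 0.05 in edgeR (409 of 15864 genes did) and 0 were free of overlap, where 2.59% of all genes were. Of the differences 4 were positive and 3 negative, with a median of 0.02. Hmgcs1 was at 382, 313, 311 and 338 CPM in old AL mice and 325, 388, 348 and 330 CPM in old EOD mice, with a log2 difference of 0.05 (-0.11 to 0.21). Sqle was at 85.4, 72.4, 79.6 and 80.8 CPM in old AL mice and 76.6, 89.3, 80.4 and 76.2 CPM in old EOD mice, a log2 difference of 0.02 (-0.14 to 0.18). The groups were interleaved in both genes. Idi1, with the fewest counts, had a log2 difference of -0.38 (-1.21 to 0.44), and Fdft1 one of -0.01 (-0.18 to 0.16).

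The other members overlapped between the old groups as well. Fdps was at 20.9, 25.2, 19.3 and 20.1 CPM in old AL mice and 22.4, 25.5, 19.2 and 28.3 CPM in old EOD mice (log2 difference 0.15, -0.12 to 0.43). Cyp51 was at 105, 76.1, 98.4 and 87.0 CPM and at 88.5, 110, 91.7 and 90.8 CPM (0.06, -0.14 to 0.26). Insig1 was at 60.3, 54.7, 52.8 and 60.8 CPM in old AL mice and 62.2, 57.7, 49.9 and 39.8 CPM in old EOD mice, the lowest mouse of the study for this gene being an old EOD mouse (-0.13, -0.40 to 0.14). The intervals of Fdps (to 0.43) and Cyp51 (to 0.26) reach past their differences in young mice, while those of Hmgcs1 (to 0.21), Sqle (to 0.18) and Insig1 (to 0.14) end below theirs, which is not a test between ages. Among the 22 enzymes, Lss (lanosterol synthase) alone had old EOD mice wholly above old AL mice. Over all genes, 2.59% failed to overlap in either direction. Lss was at 44.4 ± 2.82 against 36.7 ± 4.56 CPM (0.27, 0.05 to 0.49; edgeR FDR = 1.0), with the nearest mice at 41.1 and 40.8 CPM. Averaged over ages Lss differed by 0.26 (0.10 to 0.42; edgeR FDR = 0.983), with young mice at 0.25 (0.01 to 0.48). Over 14 mice these were 0.32 (0.18 to 0.46) and 0.36 (0.15 to 0.57). The other gene of the pathway lists with the smallest p in old mice was Ch25h, the cholesterol 25-hydroxylase, which had only 3 to 20 counts per mouse (-1.07, -2.05 to -0.10; edgeR FDR = 1.0).

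The test of whether the diet's difference depends on age is the interaction (old difference minus young difference). All 7 members had a negative value, with a median of -0.17, and 0 passed (0.0% of all genes; 362 of 15864 genes at an unadjusted p below 0.05 in edgeR, 0 of 7 members). Over 14 mice 6 of 7 were negative, Idi1 being the exception at 0.12. Insig1 was largest at -0.36 (-0.75 to 0.04), which became -0.13 without young EOD replicate 3, and Hmgcs1 was -0.19 (-0.42 to 0.04). The 8 mature oligodendrocyte markers were also all negative here (median -0.21, 0 passed). The other 16 synthesis enzymes were not: 7 were positive and 9 negative (median -0.05), and 5 and 11 over 14 mice. Over all genes 51.5% were positive. So the young and old differences were not shown to differ. Averaged over both ages, 0 members passed for diet (0.0% of all genes; 715 genes at an unadjusted p below 0.05 in edgeR), with Hmgcs1 at 0.15 (0.03 to 0.26) and Fdps at 0.21 (0.01 to 0.42). Over 14 mice Hmgcs1 was at 0.16 (0.04 to 0.27) and Fdps at 0.16 (-0.02 to 0.35).

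**Figure D3:**
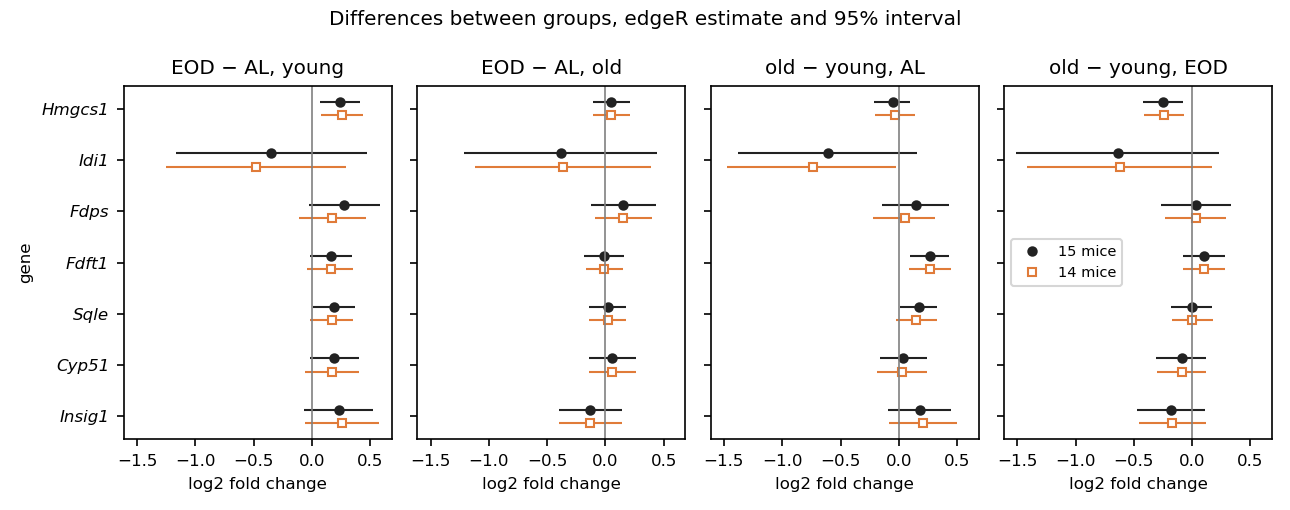
edgeR log2 fold changes (horizontal axis) with 95% intervals for the 7 genes in 4 comparisons, over 15 mice (black circles) and without young AL replicate 3 (open orange squares). Hmgcs1 in young mice lies at 0.24 for EOD against AL and at -0.25 for old against young EOD mice, and no gene passed an FDR of 0.1.

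**Figure D4:**
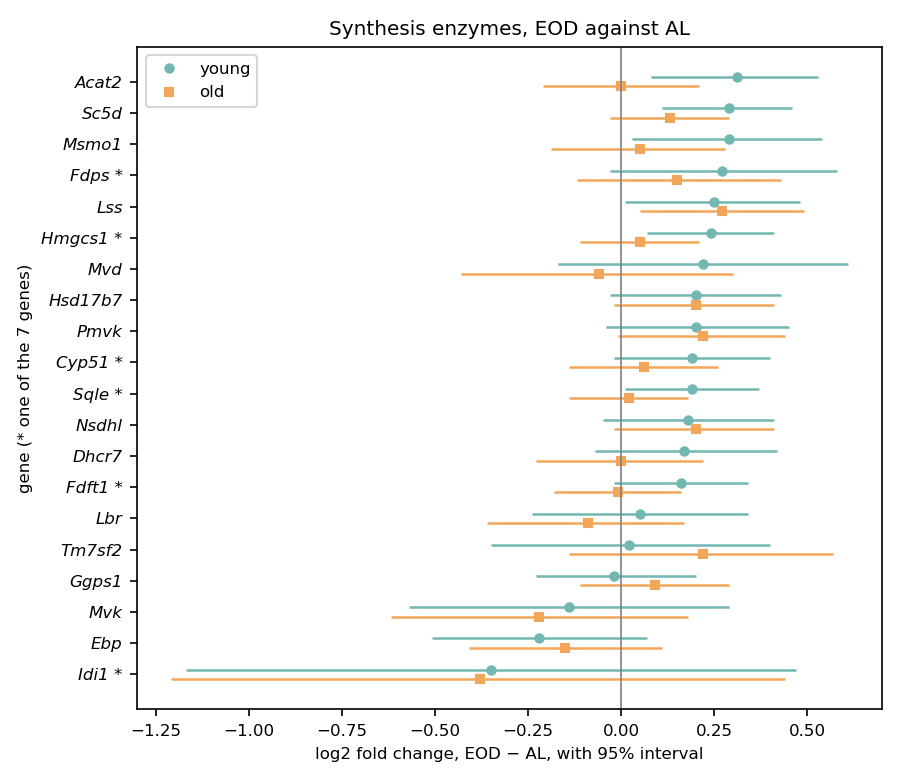
log2 fold change of EOD against AL mice (horizontal axis, 95% intervals) for 20 of the 22 synthesis enzymes in young (teal circles) and old mice (orange squares), ordered by the value in young mice. In young mice 16 of the 20 lie above 0 and in old mice 13.

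With age in AL mice, Fdft1 was the member with the clearest difference. It was at 59.3, 75, 65.2 and 62.2 CPM in young AL mice and at 76.5, 75.8, 83.4 and 79.3 CPM in old AL mice, without overlap though by less than 1 CPM at the nearest mice. The log2 difference was 0.27 ± 0.08 (0.10 to 0.43), or 1.2-fold, with an edgeR FDR of 0.186 that did not pass, and 0.27 with an FDR of 0.268 over 14 mice. Its call turned on the setting: DESeq2 gave an FDR of 0.0978, and without young AL replicate 2, the mouse at 75 CPM, edgeR called it at 0.34. Within lanes the difference was 0.20 in lane 1 (2 young, 1 old), 0.29 in lane 2 (1 young, 2 old) and 0.35 in lane 3 (1 young, 1 old). Lane 2 again rested on young AL replicate 3.

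Fdft1 shares exon sequence with Ctsb, which encodes the lysosomal protease cathepsin B and lies on the opposite strand. The overlap covers 767 bases (chr14:63145153-63145919), and Ctsb had a mean of 7242 counts per mouse against 698 for Fdft1. Counting was set to the reverse strand. Yet 17 genes of at least 200 bases that lie within 1 exon of a highly counted gene (over 20000 counts) of the opposite strand had a median of 1.19 times their host's counts per base (quartiles 1 and 1.34). Reads of the partners thus cannot be told apart over the shared bases. Ctsb was at 712 ± 54.3 CPM in young AL and 786 ± 21.9 CPM in old AL mice (SD, n = 4 each). Among mice of 1 group, Fdft1 and Ctsb had r = 0.63 over 15 mice (0.73 over 14), while Ctsb and each of the other members had r from -0.28 to 0.26 over 15 mice. What share of the Fdft1 counts comes from Ctsb was not tested.

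Of the 7 members, 0 passed the test for age in AL mice, where 1.09% of all genes did (1.03% over 14 mice), and 5 had positive differences. Sqle had 0.17 ± 0.08 (0.01 to 0.33; edgeR FDR = 0.494), Insig1 0.18 (-0.09 to 0.45), Fdps 0.15 (-0.14 to 0.43; 0.05 over 14 mice), Cyp51 0.04 (-0.16 to 0.24), Hmgcs1 -0.05 (-0.21 to 0.10) and Idi1 -0.61 (-1.38 to 0.16). Groups failed to overlap in 1 of 7 members, against 4.56% of all genes, and old AL mice lay wholly above young AL mice in 2.98% of all genes. Without young AL replicate 3 this held for 2 members, Fdft1 and Insig1, and 4.27% of all genes. An unadjusted p below 0.05 in edgeR was reached by 2 members (Fdft1 and Sqle) and 1511 genes. Over 14 mice these were Fdft1 and Idi1, with Sqle at 0.15 (-0.02 to 0.33) and Idi1 at -0.74 (-1.47 to -0.02). Without old AL replicate 4, the mouse with pituitary markers, Fdft1 was at 0.27 (0.08 to 0.45), Sqle at 0.17 (-0.01 to 0.35) and Idi1 at -0.42 (-1.27 to 0.42).

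With age in EOD mice the largest difference among the well-counted members was in Hmgcs1. It was at 423, 426 and 389 CPM in young EOD mice and at 325, 388, 348 and 330 CPM in old EOD mice, so that the groups met at 389 and 388 CPM without crossing. The log2 difference was -0.25 ± 0.08 (-0.42 to -0.08), or 0.843-fold, and did not pass (edgeR unadjusted p = 0.00618, FDR = 0.564; FDR = 0.382 over 14 mice). Within lanes it was -0.38 in lane 1 (1 young, 1 old) and -0.07 in lane 2 (2 young, 1 old). This comparison and that of diet in young mice share the 3 young EOD mice, so the 2 differences of Hmgcs1 are not independent.

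Of the 7 members 0 passed here, against 0.29% of all genes (0.484% over 14 mice), 1 was free of overlap against 9.04% of all genes, and 5 had negative differences (4 over 14 mice, Sqle lying at 0). Fdft1 was at 78.8, 82.7, 75.2 and 76.0 CPM in old EOD mice, a log2 difference from young EOD mice of 0.10 (-0.08 to 0.28). Sqle was at 0.00 (-0.18 to 0.17), Fdps at 0.03 (-0.27 to 0.33), Cyp51 at -0.09 (-0.31 to 0.12) and Insig1 at -0.18 (-0.47 to 0.11). Idi1 was at 1.74, 0.787, 2.08 and 0.925 CPM in old AL mice and at 1.34, 0.797, 0.921 and 0.962 CPM in old EOD mice, lower on average than the young groups at both diets. Its difference with age averaged over diets was -0.62 (-1.21 to -0.04; edgeR FDR = 0.382) and -0.68 (-1.22 to -0.14) over 14 mice. For age averaged over diets 2.3% of all genes passed (2.56% over 14 mice) and 0 of 7 members did, the lowest FDR being that of Fdft1 (0.18, 0.06 to 0.30; edgeR FDR = 0.168). Ctsb rose there over 14 mice (0.17; edgeR FDR = 0.0762) and not over 15 (0.14; FDR = 0.178).

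The sensors and regulators of the pathway showed 0 of 8 passes in each of the 4 simple comparisons. For diet, 3 differences were positive and 5 negative in young mice (median -0.06), and 2 and 6 in old mice (median -0.04). Young EOD mice lay wholly above young AL mice in 1 of the 8, against 2.4% of all genes. Srebf2, the factor that drives the synthesis enzymes, was at 170 ± 15.6 CPM in young AL, 151 ± 15.4 in young EOD, 173 ± 7.43 in old AL and 160 ± 15.4 in old EOD mice. Without young AL replicate 3 its mean in young AL mice was 170 ± 19.1 CPM. The log2 difference of its transcript with diet was -0.17 (-0.36 to 0.01) in young and -0.12 (-0.29 to 0.05) in old mice, opposite in sign to Hmgcs1. Its activity depends on cleavage, which was not measured.

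The genes for uptake and for release of cholesterol from lysosomes included the only calls of the pathway lists by edgeR over 15 mice in a simple comparison, and both were with age in AL mice, where 2 of 11 rose, 0 fell and 9 did not pass, against 1.09% of all genes called. Npc2, the soluble protein that hands lysosomal cholesterol to NPC1, was at 59.2, 60.9, 56.1 and 60.8 CPM in young AL mice and at 74.5, 70.3, 84.0 and 75.6 CPM in old AL mice. The groups did not overlap, and the log2 difference was 0.36 ± 0.07 (0.20 to 0.51; edgeR FDR = 0.0188; 0.34 and FDR = 0.0455 over 14 mice). Npc1, the membrane protein that exports it, was at 81.6, 69.3, 68.9 and 75.4 CPM in young AL mice and at 96.5, 92.6, 95.1 and 84.2 CPM in old AL mice. Its log2 difference was 0.32 ± 0.08 (0.16 to 0.48; edgeR FDR = 0.0494), and the call was lost over 14 mice (0.29; FDR = 0.123). Both calls were lost when only the 2 AL groups were fitted, and both held without old AL replicate 4 (Npc2 0.37, edgeR FDR = 0.0458; Npc1 0.37, FDR = 0.0317).

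In EOD mice Npc2 was at 54.9, 57.4 and 59.3 CPM when young and at 71.3, 72, 68.3 and 76.7 CPM when old, again without overlap. The log2 difference was 0.33 ± 0.08 (edgeR FDR = 0.154), and it passed over 14 mice (0.34; FDR = 0.0847). Npc1 had 0.23 ± 0.08 (edgeR FDR = 0.690). Averaged over diets both rose (Npc2 0.35, edgeR FDR = 0.000947; Npc1 0.27, FDR = 0.012), as did Apoe, the main lipid carrier made by astrocytes (0.31; edgeR FDR = 0.0598; 0.29 and FDR = 0.0832 over 14 mice). Apoe alone of 12 genes of export, esterification and turnover passed in that comparison. With age in AL mice 0 of those 12 passed, as in the other simple comparisons.

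Microglia markers were read beside Npc1, Npc2 and Apoe. Their summed level over 6 genes was 305 to 336 CPM in young AL and 297 to 323 CPM in young EOD mice, and 372 to 413 CPM in old AL and 365 to 410 CPM in old EOD mice. With age in AL mice 5 of 6 had positive differences (median 0.18) and 1 rose, and averaged over diets 3 of 6 rose. None of the 6 was at 0 in any group. Averaged over diets 1 of 7 astrocyte markers rose, with 3 positive and 4 negative differences (median -0.02). Of 8 mature oligodendrocyte markers 1 rose, with 5 positive and 3 negative. The part of any of these cells in the 3 genes' differences was not tested.

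For diet, 0 of the 11 genes of uptake and lysosomal export passed in young or in old mice. Of their differences 4 were positive and 7 negative in young mice (median -0.02), and 2 positive and 9 negative in old mice (median -0.05).

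Within groups, some members varied together from mouse to mouse. The deviations of each mouse from its group mean gave r = 0.87 for Sqle and Cyp51, 0.65 for Hmgcs1 and Sqle, 0.61 for Hmgcs1 and Cyp51, 0.57 for Fdft1 and Sqle and 0.54 for Fdft1 and Cyp51 (15 mice). These 5 were the pairs above 0.5 of 21, with 14 mice too, and the median of all pairs was 0.05. Fdps and Insig1 were at -0.36, and Idi1 was at most at 0.36, with Cyp51. The shared deviations can be seen in old EOD replicate 2, which was the highest mouse of its group for Hmgcs1 (388 CPM), Sqle (89.3 CPM) and Cyp51 (110 CPM), and in old AL replicate 1, the highest of its group for Hmgcs1 (382 CPM), Sqle (85.4 CPM) and Cyp51 (105 CPM). The points of each pair share their libraries, with their depth and base composition, and the values are given as a description.

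**Figure D5:**
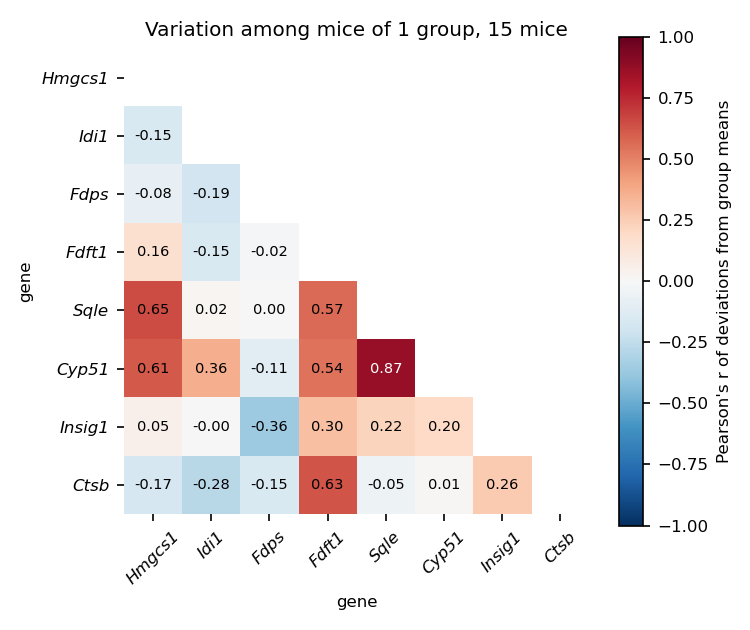
Pearson's r between genes of each mouse's deviation from its group mean in log2 CPM (15 mice), from blue at -1 to red at 1; Ctsb is the gene that overlaps Fdft1. Hmgcs1, Sqle, Cyp51 and Fdft1 hold the 5 member pairs above 0.5, Sqle and Cyp51 having 0.87.

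Over 14 mice the genes most like the mean of the 7 members, of 10852 genes with an average of at least 3 log2 CPM, were Nup160 (Spearman's rho = 0.80), Sema4b (0.78), Spty2d1 (0.78), Zfp948 (0.77) and Klhl9 (0.77). They are the highest of very many genes ranked over few mice, which by itself picks high values. A link to the members was not tested. The list rested on Idi1, which has few counts and the widest spread: without it the same 5 genes had rho of 0.53, 0.43, 0.53, 0.42 and 0.64. Among the members, Cyp51 was closest to the mean (0.83) and Fdps farthest (0.08).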

How the data were processed

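Whole-brain RNA of 15 mice was sequenced as single-end 50-base reads on a HiSeq2000. The authors trimmed reads with their own software, aligned them with STAR to GRCm38 and deposited raw counts per gene from featureCounts (v1.5.0-p1), with Ensembl release 79 annotation, a mapping quality of at least 5 and reverse strand setting 2, per the file headers. No counts were pooled. Groups came from the labels.

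Counts were filtered with filterByExpr, scaled by TMM and tested with edgeR 4.0.16 (R 4.3.3) in 1 quasi-likelihood fit of 4 group means. Calls had a Benjamini-Hochberg FDR under 0.1, and 95% intervals came from the same fit. The study's methods use DESeq2, run here (1.42.0) as an alternative. FPKM used the deposited gene lengths. The script was tested on simulated data. No source used here says whether mice shared a litter, cage or day.

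The members and lists were chosen with earlier results of these data known. The named genes were the 7 members, Srebf2, every pathway list gene called in a simple comparison, the 2 with the smallest p in each, and the 5 genes most like the members' mean. Some genes of the rule and lists enter the counts and sums but are not reported here by name. Others (Apoe, Ctsb and the enzymes listed by name for overlap or sign) were named after their values were seen. Stretches of 50 bases were compared over GENCODE M21 transcripts, leaving out genes whose span crosses the member. Promoter sequences are from RefSeq (GRCm38.p6). Read totals limit precision to counting error, plus the spread among mice.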

Additional observations from a re-analysis of the deposited data

Results flagged for a closer look

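Among 24 groups of 4 mice (the members and Srebf2), 1 held a mouse far from the rest of its group by Dixon's test, and chance gives about 1 group in 20. Cyp51 was at 110 CPM in old EOD replicate 2, where the other 3 mice were at 88.5 to 91.7 CPM.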

How the results depend on the processing

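The 7 comparisons of each member were recomputed under 21 other settings. Of 1007 values, 957 kept their direction and side of the threshold, 3 passed it, 0 lost a call and 47 changed sign, none of these with a main value over 0.18 in size. Fdft1 was called with age in AL mice by DESeq2 (0.27), which called 245 of 18111 genes in that comparison. Without young AL replicate 2 it was called with age in AL mice (0.34) and with age averaged over diets (0.22). Members called were 1 in each of these cases. Leaving out each mouse gave 0 to 1 members called in these 2 comparisons, 1 to 3 pathway genes called with age in AL mice (Npc1 was lost without young AL replicates 2 or 3 or old AL replicates 1, 2 or 3) and 0 to 1 with age in EOD mice. Fitting only the 2 groups compared called 0 pathway genes with age in AL mice. With age in EOD mice, 1 was called with no filter on low counts (Srebf1) and 1 by DESeq2 (Npc2).

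Signs turned in differences near 0. With age in EOD mice, Fdps was -0.02 with the replicate block, and Sqle was 0.0024 with DESeq2-type (RLE) size factors, 0.0027 with no filter, 0.0005 with lane as a covariate and 0.0016 in DESeq2. Insig1 with age averaged over diets was 0.0021, 0.0049, 0.03 and 0.0022 in the same order and 0.02 with the replicate block. Fdft1 with diet in old mice was 0.01 with lane as a covariate. Leaving out 1 mouse at a time gave these ranges. With age in AL mice, Cyp51 ran from -0.04 to 0.12. With age in EOD mice, Fdps ran from -0.07 to 0.12, Sqle from -0.05 to 0.03 and Insig1 from -0.29 to 0.05. Averaged over diets, Cyp51 ran from -0.07 to 0.01 and Insig1 from -0.06 to 0.11. With diet in old mice, Hmgcs1 ran from -0.01 to 0.12, Fdft1 from -0.04 to 0.02, Sqle from -0.03 to 0.05 and Cyp51 from -0.02 to 0.13. Insig1 with diet averaged over ages ran from -0.06 to 0.11, and Idi1 in the interaction from -0.24 to 0.19. The cause was not tested.

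Over all genes, with no filter on low counts 444 were called with age in AL mice (173 with it), 100 in EOD mice (46) and 653 averaged (365), and for diet 26 in the young, 27 in the old, 65 over both ages and 26 in the interaction (0 each with it). DESeq2 called 70 with age in EOD mice and 1 with diet in young mice. Lane as a covariate gave 237 with age averaged and 2 with diet in old mice, and fitting only the AL groups 86 with age. Leaving out 1 mouse gave 102 to 221 with age under AL, 19 to 76 under EOD and 216 to 425 over both diets. Replicate numbers do not pair mice: deviations of same-numbered mice had correlations of -0.113 to 0.113 (mean -0.0266). The replicate block gave 155 calls with age under AL, 35 under EOD and 250 over both diets, and changed no member's call. All 28 group means of members stayed within 1 SD under plain CPM. Members wholly above in old AL mice went from 1 to 2 without young AL replicate 3, chosen after seeing the data. With 6 to 25 counts, Idi1 is limited by depth.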
